A study of Homo sapiens with 6 samples.

Results

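HLA class I antigen presentation was followed here through 9 genes, chosen by name: the heavy chain genes HLA-B, HLA-C, HLA-E and HLA-F, the shared light chain B2M, the peptide transporter subunits TAP1 and TAP2, the loading factor TAPBP, and the transcriptional coactivator NLRC5. These are 9 of the 32679 genes in the expression table. Gene expression was measured by RNA-seq in HEY cells, a human ovarian cancer cell line, upon knockdown of PQBP1, a polyglutamine-binding protein that acts in pre-mRNA splicing. The control group (shNC, 3 samples) carried a control hairpin with no treatment, and the knockdown group (shPQBP1, 3 samples) carried a hairpin against PQBP1 with doxycycline at 1 µg/ml, all at day 3. The series' design text calls the knockdown cells doxycycline-inducible without saying whether the control cells received the drug. If they did not, as the labels have it, the parts of the hairpin and of doxycycline in any group difference cannot be told apart. Both groups are lentivirally transduced, puromycin-selected lines with 1 hairpin each.

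Class I molecules show fragments of a cell's own proteins to CD8 T cells. The proteasome cuts proteins into peptides, the TAP1 and TAP2 heterodimer pumps them into the endoplasmic reticulum, and tapasin (TAPBP) holds TAP next to an empty heavy chain paired with β2-microglobulin (B2M) until a peptide fits. HLA-B and HLA-C are classical, highly polymorphic heavy chains, HLA-E presents leader peptides of other class I chains to NK cell receptors, and HLA-F is a less abundant nonclassical chain. NLRC5 drives transcription of most of these genes through a promoter enhanceosome, and tumour cells often reduce the pathway at the RNA level.

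Positions are given in hg38 (GENCODE release 44). On chromosome 6, the major histocompatibility complex holds 7 of them over 3.59 Mb, from HLA-F (chr6:29722775-29738528, plus strand) through HLA-E (chr6:30489509-30494194, plus), HLA-C (chr6:31268749-31272130, minus), HLA-B (chr6:31353872-31367067, minus), TAP2 (chr6:32821833-32838739, minus) and TAP1 (chr6:32845209-32853816, minus) to TAPBP (chr6:33299694-33314284, minus). B2M is at chr15:44711358-44718851 (plus) and NLRC5 at chr16:56989485-57083531 (plus).

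Promoter letters of the members are shown here because promoters are the control region through which class I genes are known to be regulated together. Windows of 250 bases before the RefSeq transcript start (GRCh38.p14) were found for 7 of the 9 members. NLRC5 and HLA-E were not matched. The windows of TAP2 and TAPBP, which held no CCAAT, are not printed. In the 5 windows printed here, 5′ to 3′ on the gene's strand, capitals mark every match on either strand to 1 of 4 short patterns: TGACG (the core of a cyclic AMP response element, as in the X2 box), CCAAT (as in the Y box), AANNGAAA (an interferon regulatory factor core) and a kappa B type site (GGG, any 3 bases, T, any base, CC). The patterns can overlap, and their letters were chosen with the sequences in view.
HLA-B, chr6:31357180-31357429, minus strand: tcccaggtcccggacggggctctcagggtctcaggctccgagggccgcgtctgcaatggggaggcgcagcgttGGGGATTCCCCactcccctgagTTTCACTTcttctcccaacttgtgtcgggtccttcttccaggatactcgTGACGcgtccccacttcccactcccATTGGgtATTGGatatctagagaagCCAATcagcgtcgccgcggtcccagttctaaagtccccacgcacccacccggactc
HLA-C, chr6:31272093-31272342, minus strand: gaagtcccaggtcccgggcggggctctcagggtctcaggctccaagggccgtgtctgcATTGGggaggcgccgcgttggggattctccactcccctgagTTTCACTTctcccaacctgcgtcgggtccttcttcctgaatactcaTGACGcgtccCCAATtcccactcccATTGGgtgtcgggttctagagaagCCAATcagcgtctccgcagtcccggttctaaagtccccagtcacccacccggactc
HLA-F, chr6:29723184-29723433, plus strand: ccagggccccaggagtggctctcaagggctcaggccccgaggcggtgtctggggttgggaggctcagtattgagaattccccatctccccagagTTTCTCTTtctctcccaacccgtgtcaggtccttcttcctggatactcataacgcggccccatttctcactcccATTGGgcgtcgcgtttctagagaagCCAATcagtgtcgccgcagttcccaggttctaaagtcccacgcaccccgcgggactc
B2M, chr15:44711267-44711516, plus strand: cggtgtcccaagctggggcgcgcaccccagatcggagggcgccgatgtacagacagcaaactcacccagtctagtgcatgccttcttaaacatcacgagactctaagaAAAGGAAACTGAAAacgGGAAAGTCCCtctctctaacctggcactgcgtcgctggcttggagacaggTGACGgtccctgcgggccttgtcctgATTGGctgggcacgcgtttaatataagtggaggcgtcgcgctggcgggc
TAP1 (first of its RefSeq starts), chr6:32853705-32853954, minus strand: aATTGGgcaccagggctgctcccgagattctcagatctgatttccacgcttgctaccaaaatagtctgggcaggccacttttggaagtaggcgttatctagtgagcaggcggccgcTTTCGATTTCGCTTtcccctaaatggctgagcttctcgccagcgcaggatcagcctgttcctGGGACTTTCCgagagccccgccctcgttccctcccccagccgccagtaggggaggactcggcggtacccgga

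The shares of members that hold a pattern are a description only, since the patterns were chosen on these sequences and members were counted per gene while the background was counted per window. The second RefSeq start of TAP1 held none of the 4 patterns. The interferon regulatory factor core was present in 7 of 7 members, against 20.3% of the 35116 RefSeq promoter windows of the same length. CCAAT was present in 5 of 7 (32.0% of all windows), TGACG in 4 of 7 (21.2%) and the kappa B type pattern in 4 of 7 (18.9%). All 4 patterns occurred in 47 windows (0.134%), HLA-B and B2M among them. In HLA-B and HLA-C the single TGACG began at positions -106 and -105 and the single interferon regulatory factor core at -155 and -151, counted back from -1 at the base before the start. A match describes the letters only.

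PQBP1 itself was 7.18, 6.67 and 6.93 FPKM in the shNC samples and 1.68, 1.72 and 1.44 FPKM in the shPQBP1 samples. FPKM counts fragments relative to transcript length and to all mapped fragments, so levels may be compared between genes. PQBP1 was therefore lower in 3 of 3 knockdown samples (log2 fold change -2.04, SE 0.10, limma adjusted p = 0.00154). The FPKM of all genes summed to 294970.3 to 318484.3 in the shNC samples and 278285.8 to 287422.6 in the shPQBP1 samples, without overlap. The main fit leaves this difference in, and the scaling to equal sums given below takes it out. The read depth is unknown. shNC sample 1 stood apart most, with correlations of 0.926 to 0.955 with the other samples. Among 12 immune cell markers PTPRC was listed at 0 in all 6 samples, and the 6 other than CD68 that have values summed to 0.7 to 0.87 FPKM in shNC and 0.42 to 0.59 in shPQBP1. CD68, which cells outside the immune system also express, was 9.12 to 15.57 FPKM in shNC and 12.14 to 21.16 in shPQBP1. Of 9 epithelial and ovarian carcinoma markers 6 were tested, and limma called 0 after adjustment and 1 before it, PAX8 (16.7%, all genes 23.6%). PAX8, a Müllerian lineage factor, was 12.33 to 15.7 FPKM in shNC and 18.41 to 24.08 in shPQBP1 (limma adjusted p = 0.102). KRT19 was also higher without overlap, as was VIM, which is in this list but is not an epithelial marker. WT1, below the minimum, was lower without overlap, at 0.63 to 0.71 FPKM in shNC and 0.31 to 0.45 in shPQBP1. EPCAM and KRT7 had lower means with overlapping groups, KRT8 and KRT18 had higher means with overlapping groups, and MUC16, the CA125 antigen, was at most 0.01 FPKM. The markers named were picked out after their values were seen, and their part in the results was not tested.

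In control cells the members spanned a wide range of RNA levels. B2M was the most abundant, at 119.8 ± 9.05 FPKM (SD, n = 3), followed by HLA-E at 65.45 ± 6.31 and HLA-B at 28.02 ± 1.34. TAP2 at 18.15 ± 0.587 and HLA-C at 16.57 ± 2.52 came next, and the ranges of these neighbours overlapped. TAPBP at 12.54 ± 1.13, TAP1 at 5.51 ± 0.604, NLRC5 at 0.6267 ± 0.0252 and HLA-F at 0.1833 ± 0.0404 followed, each apart from its neighbours in the order. Upon knockdown the order was the same except that HLA-C (22.42 ± 2.95) stood above TAP2 (18.35 ± 0.747), again with overlapping ranges. HLA-E RNA thus exceeded that of either classical heavy chain among the members in all 6 samples, and the coactivator NLRC5 was under 1 FPKM in all of them.

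**Figure D1:**
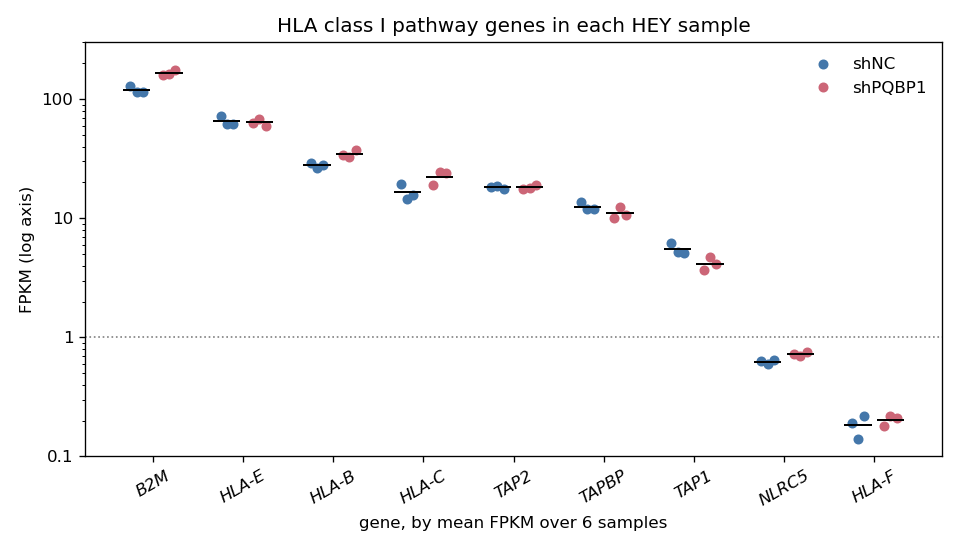
FPKM of the 9 class I pathway genes (log scale) in each of the 3 shNC and 3 shPQBP1 samples, points for samples and bars for group means. B2M is highest in both groups (119.8 and 165.9 FPKM on average) and HLA-F lowest (0.1833 and 0.2033).

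Upon PQBP1 knockdown, B2M RNA was higher, and the other members tested did not pass the test after adjustment over all genes. The call of B2M was lost in 10 of the alternative fits described below. HLA-B and HLA-C had higher means in shPQBP1, TAP1 had a lower mean, and HLA-E, TAP2 and TAPBP differed little relative to their spread. Of the 9 members, 7 had a mean of at least 1 FPKM and were tested. At an adjusted p under 0.05, 1 of the 7 was called, B2M, against 332 of the 11413 genes tested (2.91%), of which 197 were higher (1.73%) and 135 lower (1.18%). Before adjustment, p was under 0.05 for 4 of 7 (57.1%), with B2M, HLA-B and HLA-C higher and TAP1 lower, against 23.6% of all genes tested (11.9% higher, 11.7% lower). The groups did not overlap in 3 of the 7 (B2M and HLA-B higher, TAP1 lower), against 34.4% of all genes (17.3% higher, 17.1% lower). The median log2 fold change of the 7 was 0.02, and that of all genes tested was 0.021. RNA came from whole samples, so a change in fewer cells and a smaller change in every cell cannot be told apart.

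B2M (ENSG00000166710), the light chain that every class I molecule needs to reach the surface, was 130.24, 114.17 and 114.98 FPKM in shNC and 159.51, 163.95 and 174.28 FPKM in shPQBP1. Each knockdown sample lay above each control sample. The mean was 1.38-fold higher, at 165.9 ± 7.58 against 119.8 ± 9.05 FPKM (SD, n = 3 each), with a log2 fold change of 0.47 (SE 0.08, 95% interval 0.28 to 0.66, limma adjusted p = 0.0362). The exact permutation test over the 6 samples gave its smallest possible p, 0.1. The call was lost when any of 5 of the 6 samples was left out. The limma adjusted p was 0.0183 without shNC sample 1, 0.0989 without shNC sample 2, 0.131 without shNC sample 3, and 0.135, 0.134 and 0.157 without shPQBP1 samples 1, 2 and 3, while the log2 fold change stayed between 0.44 and 0.53. B2M transcripts are poor in GC (39.1%), and log2 fold changes over 11385 genes fell with GC content (Spearman rho -0.459 across genes, which are not independent). After a correction for GC content and length, B2M stood at 0.28 (SE 0.14, adjusted p = 0.252), within a range of adjusted p of 0.013 to 0.367 over its alternatives.

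HLA-B (ENSG00000234745), a classical heavy chain whose promoter holds all 4 patterns above, was 29.3, 26.63 and 28.13 FPKM in shNC and 34.21, 32.45 and 37.13 FPKM in shPQBP1. The groups did not overlap. The mean was 34.6 ± 2.36 against 28.02 ± 1.34 FPKM (SD, n = 3 each). On the log2 scale the difference was 0.30 (SE 0.08, 95% interval 0.10 to 0.50), with a limma adjusted p of 0.107. Its transcript has 58.9% GC. After the GC and length correction the log2 fold change was 0.49 (SE 0.10, adjusted p = 0.0353), and with FPKM scaled to equal sums it was 0.42 (adjusted p = 0.0463). That scaling also moved the median of all genes to 0.133. Over all alternatives, samples left out included, the adjusted p of HLA-B ran from 0.0353 to 0.299.

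HLA-C (ENSG00000204525), the classical chain that is the main class I ligand of killer cell Ig-like receptors, was 19.38, 14.51 and 15.81 FPKM in shNC and 19.02, 24.36 and 23.87 FPKM in shPQBP1. The groups overlapped by 1 sample each, shNC sample 1 and shPQBP1 sample 1. The log2 fold change was 0.44 (SE 0.15, 95% interval 0.08 to 0.80, limma adjusted p = 0.156). With a transcript of 60.1% GC, HLA-C stood at 0.64 (SE 0.09, adjusted p = 0.0154) after the GC and length correction. Its adjusted p ran from 0.0154 to 0.365 over the alternatives.

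HLA-E (ENSG00000204592) was 72.74, 61.7 and 61.92 FPKM in shNC and 63.45, 68.42 and 59.7 FPKM in shPQBP1, with the groups overlapping throughout. Its log2 fold change was -0.03 as deposited (SE 0.10, 95% interval -0.27 to 0.20, limma adjusted p = 0.842), and it turned to 0.08 with equal sums and 0.10 after the GC and length correction. HLA-F (ENSG00000204642) was 0.19, 0.14 and 0.22 FPKM in shNC and 0.18, 0.22 and 0.21 in shPQBP1. It was under the minimum for testing, and the groups overlapped (exact permutation p = 0.7). A fit without that minimum gave 0.11 (SE 0.22, adjusted p = 0.825).

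The heavy chain genes resemble each other, so fragments could be shared between them. Of the 75-base windows of each canonical reference transcript, 0 of 1462 in HLA-B, 0 of 1406 in HLA-F, 1 of 2474 in HLA-E and 1 of 1468 in HLA-C occurred without mismatch in another of these 4 genes. Sharing with class I genes outside the 4 is not reported here. The alleles of HEY cells were not examined and the authors' handling of fragments with several matches is not given in the sources used here, so the split between heavy chain genes is uncertain. The 4 heavy chains together summed to 121.61, 102.98 and 106.08 FPKM in shNC and 116.86, 125.45 and 120.91 FPKM in shPQBP1, with overlapping groups (exact permutation p = 0.3).

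TAP1 (ENSG00000168394), the TAP subunit encoded next to the immunoproteasome genes, was 6.2, 5.25 and 5.08 FPKM in shNC and 3.66, 4.71 and 4.14 FPKM in shPQBP1. Every knockdown sample was lower than every control sample. The mean was 4.17 ± 0.526 against 5.51 ± 0.604 FPKM (SD, n = 3 each). On the log2 scale the difference was -0.40 (SE 0.13, 95% interval -0.71 to -0.08) with a limma adjusted p of 0.147. The GC and length correction gave -0.23 for this transcript of 57.4% GC (adjusted p = 0.156), and the adjusted p ran from 0.136 to 0.356 over the alternatives. TAP2 (ENSG00000204267), its partner subunit, was 18.29, 18.66 and 17.51 FPKM in shNC and 17.76, 18.1 and 19.19 FPKM in shPQBP1. These groups overlapped, with a log2 fold change of 0.02 (SE 0.07, 95% interval -0.16 to 0.19, limma adjusted p = 0.91) that was -0.01 under quantile normalization.

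TAPBP (ENSG00000231925), tapasin, was 13.84, 11.87 and 11.9 FPKM in shNC and 9.97, 12.49 and 10.63 FPKM in shPQBP1. shPQBP1 sample 2 lay within the control range and the other two lay below it. The log2 fold change was -0.19 (SE 0.12, 95% interval -0.47 to 0.10, limma adjusted p = 0.356).

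NLRC5 (ENSG00000140853) was 0.63, 0.6 and 0.65 FPKM in shNC and 0.73, 0.7 and 0.75 in shPQBP1. It was under the minimum for testing, yet the groups did not overlap, at 0.7267 ± 0.0252 against 0.6267 ± 0.0252 FPKM (SD, n = 3 each, exact permutation p = 0.1, the smallest possible). In the fit without the minimum its log2 fold change was 0.19 (SE 0.16, adjusted p = 0.628).

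**Figure D2:**
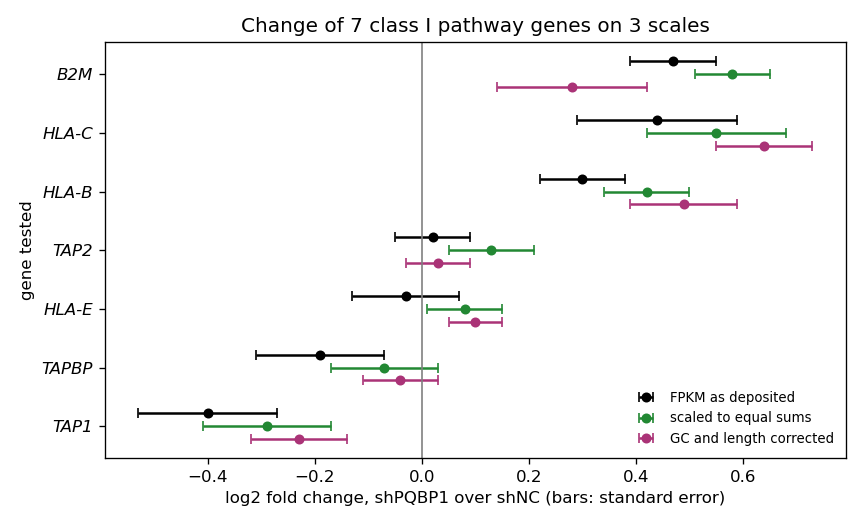
Log2 fold change (shPQBP1 over shNC, bars for the standard error) of the 7 members tested, with FPKM as deposited, scaled to equal sums, and after the GC and length correction. Under the correction B2M is at 0.28 in place of 0.47, HLA-B at 0.49 in place of 0.30 and HLA-C at 0.64 in place of 0.44.

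The members differ in GC content, and the GC-rich members had unlike log2 fold changes after the correction. The median GC content of the tested genes was 47.5%. B2M lies on the GC-poor side at 39.1%. HLA-C, HLA-B, TAP1, TAPBP and HLA-E lie on the GC-rich side, between 55.1% and 60.1%, and TAP2 is near the middle at 48.9%. After the correction HLA-B (0.49, limma adjusted p = 0.0353) and HLA-C (0.64, 0.0154) stood above 0 on the log2 scale. The other GC-rich members did not pass: TAP1 (-0.23, SE 0.09, adjusted p = 0.156), TAPBP (-0.04, SE 0.07, 0.738) and HLA-E (0.10, SE 0.05, 0.278).

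**Figure D3:**
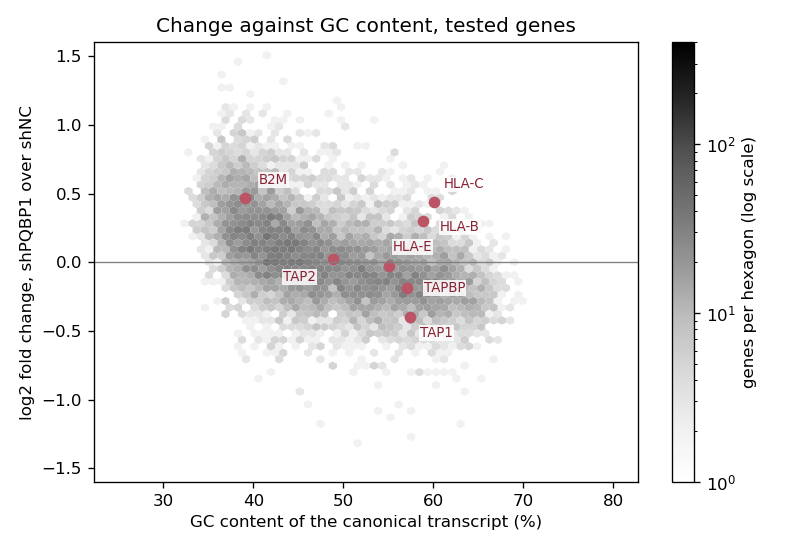
Log2 fold change (shPQBP1 over shNC) against the GC content of the canonical transcript (%) for 11385 tested genes, grey hexagons for gene counts on a log scale and red points for the 7 members, with 73 genes outside the plotted range. HLA-B and HLA-C (0.30 and 0.44) lie above the grey cloud's centre at their GC content, and TAP1 (-0.40) below it.

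Ratios between genes within a sample do not change when a whole sample is rescaled by a factor. The 6 ratios were chosen after the values were seen and share genes, so their separation is a description only. For each the exact permutation p over 6 samples was 0.1, the smallest possible. It was also 0.1 after Benjamini-Hochberg adjustment over the 6, which does not cover that choice. Among single genes the groups did not overlap in 34.4% of all tested, and the share among other ratios was not tested. B2M over the 4 summed heavy chains was 1.07, 1.11 and 1.08 in shNC and 1.36, 1.31 and 1.44 in shPQBP1, a mean ratio 1.26-fold higher. This ratio sets a GC-poor transcript against GC-rich ones. After the GC and length correction the log2 fold change of B2M (0.28) was below those of HLA-B (0.49) and HLA-C (0.64) and above that of HLA-E (0.10). HLA-C over HLA-E was 0.266, 0.235 and 0.255 in shNC and 0.3, 0.356 and 0.4 in shPQBP1. Relative to HLA-E, HLA-C RNA was higher in each knockdown sample than in each control, although HLA-C by itself overlapped between the groups.

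HLA-B over HLA-E was likewise 0.403, 0.432 and 0.454 in shNC and 0.539, 0.474 and 0.622 in shPQBP1. Within the transporter, TAP1 over TAP2 was 0.339, 0.281 and 0.29 in shNC and 0.206, 0.26 and 0.216 in shPQBP1. Every knockdown sample had less TAP1 per TAP2 than any control sample.

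**Figure D4:**
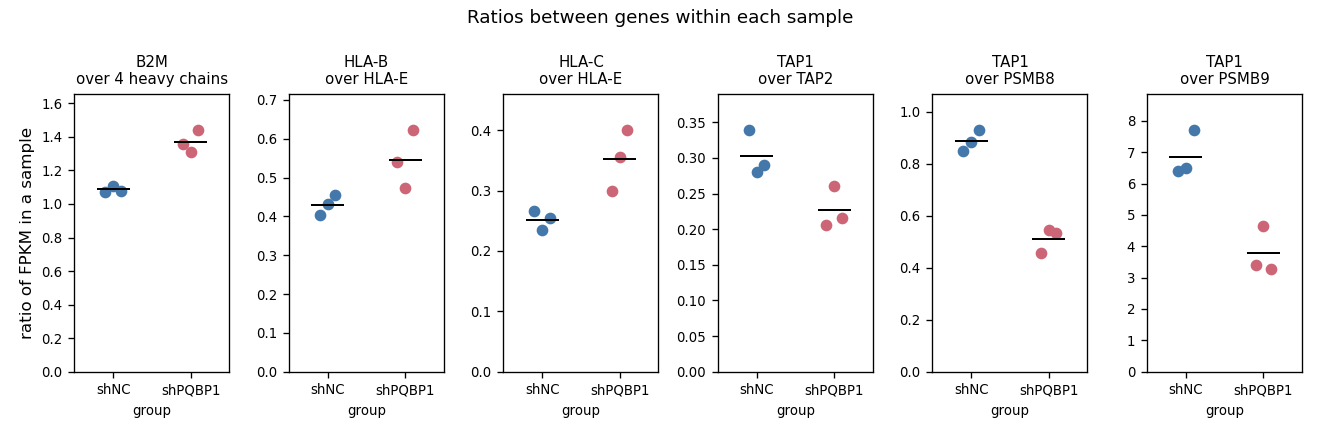
Ratios of FPKM between genes within each sample for the 3 shNC and 3 shPQBP1 samples, points for samples and lines for means, each axis starting at 0. B2M, HLA-B and HLA-C are higher in shPQBP1 relative to the heavy chains or HLA-E, and TAP1 is lower relative to TAP2, PSMB8 and PSMB9. The groups overlap in none of the 6, which share genes and were chosen after their values were seen.

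The immunoproteasome neighbours of TAP1 had higher values in shPQBP1, opposite to TAP1. PSMB8, an immunoproteasome subunit encoded between TAP2 and TAP1 (chr6:32840717-32844679, minus), was 7.29, 5.93 and 5.47 FPKM in shNC and 7.99, 8.62 and 7.77 FPKM in shPQBP1. Its groups did not overlap, and its log2 fold change was 0.39 (SE 0.12, limma adjusted p = 0.141). That value was 0.50 (adjusted p = 0.0438) without shNC sample 1 and 0.51 (adjusted p = 0.0132) after the GC and length correction, within a range of 0.0132 to 0.317 over the alternatives.

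PSMB9, another immunoproteasome subunit (chr6:32844136-32859851, plus), has its RefSeq transcript start 488 bases from that of TAP1, on the other strand. It was 0.97, 0.81 and 0.66 FPKM in shNC and 1.08, 1.01 and 1.26 in shPQBP1, below the minimum for testing and without overlap (exact permutation p = 0.1). TAP1 over PSMB8 was 0.85, 0.885 and 0.929 in shNC and 0.458, 0.546 and 0.533 in shPQBP1. TAP1 over PSMB9 was 6.39, 6.48 and 7.7 in shNC and 3.39, 4.66 and 3.29 in shPQBP1. In GENCODE the PSMB9 span overlaps those of TAP1 and PSMB8 on the opposite strand. Whether the authors counted by strand is not given in the sources used here, so reads of these 3 genes in the overlaps cannot be told apart.

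Peptide supply was followed in 10 genes of the proteasome and of peptide trimming, of which 9 were tested. At an adjusted p under 0.05 limma called 0, and at an unadjusted p under 0.05 it counted 3 positive and 0 negative (33.3%, all genes 23.6%). The median log2 fold change was 0.14. ERAP2, an aminopeptidase that trims peptides in the endoplasmic reticulum, was 7.22, 11.55 and 10.56 FPKM in shNC and 15.18, 13.42 and 15.02 FPKM in shPQBP1. Its groups did not overlap (log2 fold change 0.59, SE 0.18, limma adjusted p = 0.133, and 0.40 with adjusted p = 0.0413 after the GC and length correction). The other genes at an unadjusted p under 0.05 were PSMB8 and, named after its values were seen, the related aminopeptidase ERAP1 (0.26). The immunoproteasome subunit PSMB10, also named after its values were seen, did not go with PSMB8 and PSMB9. Its mean was lower in shPQBP1 with overlapping groups (log2 fold change -0.11, SE 0.16, limma adjusted p = 0.685).

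Peptide loading in the endoplasmic reticulum was followed in 8 genes, all tested. At an adjusted p under 0.05 the count by limma was 0. At an unadjusted p under 0.05 it was 3, with 1 higher and 2 lower (37.5%, all genes 23.6%). The median log2 fold change was 0.00. BCAP31, a membrane protein that aids export of class I molecules, was 44.68, 39.02 and 39.45 FPKM in shNC and 35.08, 24.87 and 26.64 FPKM in shPQBP1 (log2 fold change -0.52, SE 0.14, limma adjusted p = 0.111). UGGT1, which checks glycoprotein folding, was 8.71, 9.93 and 9.58 FPKM in shNC and 11.18, 11.26 and 10.93 FPKM in shPQBP1 (0.24, SE 0.08, adjusted p = 0.151). Neither gene's groups overlapped. The other lower gene, named after its values were seen, was the chaperone HSPA5.

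Other class I and class I-like genes numbered 11, of which 10 had a value and 9 were tested. By limma 0 passed at an adjusted p under 0.05. The unadjusted threshold of 0.05 passed 1 higher and 3 lower (44.4%, all genes 23.6%). The median log2 fold change was -0.21. The lower ones were the ULBP ligands of the NK receptor NKG2D. ULBP2 was 16.73, 17.0 and 15.95 FPKM in shNC and 13.3, 12.53 and 12.52 FPKM in shPQBP1 (log2 fold change -0.37, SE 0.07, limma adjusted p = 0.0546). ULBP1 was 1.91, 1.95 and 1.97 FPKM in shNC and 1.35, 0.95 and 1.26 FPKM in shPQBP1 (-0.68, SE 0.16, adjusted p = 0.0766). Both were lower in every knockdown sample than in any control. The others at an unadjusted p under 0.05, named after their values were seen, were ULBP3 and, on the higher side, the iron regulator HFE. ULBP1 had an adjusted p of 0.0376 after the GC and length correction (log2 fold change -0.75).

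Transcription factors that act on class I promoters numbered 15, of which 14 were tested. By limma 0 passed after adjustment. The unadjusted threshold of 0.05 passed 0 higher and 3 lower (21.4%, all genes 23.6%), with a median log2 fold change of 0.06. RELA, the NF-κB subunit that binds kappa B sites, was 16.08, 12.69 and 14.28 FPKM in shNC and 6.07, 6.69 and 10.28 FPKM in shPQBP1. These groups did not overlap (log2 fold change -0.92, SE 0.21, limma adjusted p = 0.0749). The other lower genes were NFKB1, named after its values were seen, and IRF1. IRF1, an interferon regulatory factor known to act on class I genes, was 5.05, 4.24 and 4.41 FPKM in shNC and 3.49, 4.08 and 3.58 FPKM in shPQBP1 (-0.29, SE 0.11, adjusted p = 0.187). RFX5, the X box binding factor, picked out after its values were seen, had a log2 fold change of 0.04 (adjusted p = 0.779).

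Interferon signalling was followed in 13 genes, 9 of them tested, with 0 called by limma after adjustment. Before it, at p under 0.05, 2 were higher and 1 lower (33.3%, all genes 23.6%). IFNAR2, a chain of the type I interferon receptor, was 2.98, 2.9 and 3.54 FPKM in shNC and 2.87, 1.77 and 1.61 FPKM in shPQBP1 (log2 fold change -0.61, SE 0.23, limma adjusted p = 0.18). The receptor kinase JAK2 was 1.5, 3.42 and 3.01 FPKM in shNC and 5.1, 4.03 and 4.15 FPKM in shPQBP1 (0.79, SE 0.31, adjusted p = 0.19). In both genes the groups did not overlap. JAK1 was the other higher gene, named after its values were seen. IFNB1, interferon beta, was below the minimum for testing and was picked out after its values were seen. It was 0.48, 0.69 and 0.49 FPKM in shNC and 1.08, 1.32 and 0.82 in shPQBP1, without overlap (exact permutation p = 0.1).

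Interferon-induced genes moved in both directions. Of 36 such genes 32 were tested, 13 with a positive and 19 with a negative log2 fold change, and the median was -0.07. At an adjusted p under 0.05, IFIT2 rose and MX1 fell. At an unadjusted p under 0.05, 5 were higher and 7 lower (37.5%, all genes 23.6%). IFIT2, which binds viral RNA, was 5.03, 6.63 and 6.95 FPKM in shNC and 14.29, 13.4 and 13.22 FPKM in shPQBP1. That is a log2 fold change of 1.14 (SE 0.14, limma adjusted p = 0.0181). Its adjusted p was 0.0517 without shNC sample 2, and 0.088, 0.0834 and 0.0904 without shPQBP1 samples 1, 2 and 3. MX1, an antiviral GTPase, was 3.63, 3.47 and 3.08 FPKM in shNC and 0.87, 1.08 and 0.87 FPKM in shPQBP1 (log2 fold change -1.75, SE 0.14, adjusted p = 0.00479). Its call held without any 1 sample (adjusted p 0.0133 to 0.0366).

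After the GC and length correction 7 of the 32 interferon-induced genes tested were called, against 938 of 11385 genes in all. The 7 are named here after their values were seen. IFIT2 (1.01), BST2 (1.28), IFI6 (0.58) and IFI27 (0.56) were higher on the log2 scale, and MX1 (-1.67), GBP2 (-0.64) and USP18 (-0.44) were lower. BST2, the virion tether tetherin, was 1.05, 0.56 and 0.82 FPKM in shNC and 2.03, 1.85 and 1.62 FPKM in shPQBP1, a log2 fold change of 1.12 as deposited (limma adjusted p = 0.062). Before the correction TRIM22 and GBP1 were also higher at an unadjusted p under 0.05, beside IFIT2, BST2 and IFI27. The 7 lower ones were MX1, IRF7 (log2 fold change -0.60), OAS1 (-0.56), GBP2 (-0.52), USP18 (-0.51), MX2 (-0.43) and OAS3 (-0.36).

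**Figure D5:**
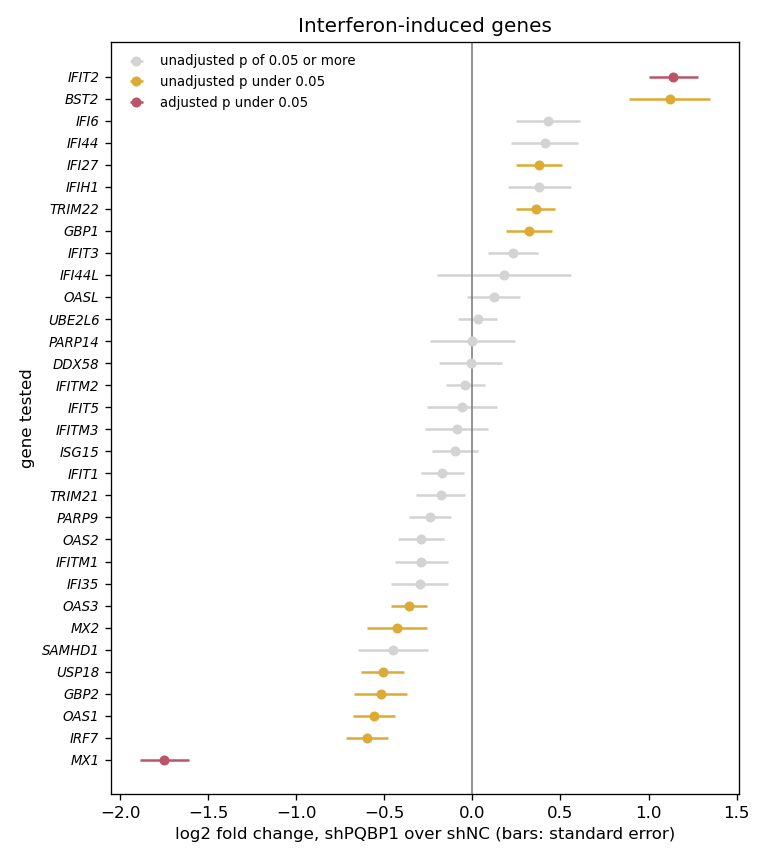
Log2 fold change (shPQBP1 over shNC, bars for the standard error) of the 32 interferon-induced genes tested, coloured by limma p-value. IFIT2 (1.14) and MX1 (-1.75) pass at an adjusted p under 0.05, and 13 genes lie above 0 and 19 below.

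Class II genes, which present peptides to CD4 T cells in immune cells, were at or near 0 except for HLA-DMA. Of 9 genes 5 had values and 0 reached the minimum for testing. HLA-DPA1, HLA-DPB1, HLA-DMB and CD74 were at most 0.03 FPKM in any sample, and HLA-DMA was 0.27 to 0.61 FPKM. All 5 are named after their values were seen.

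The genes whose values over the 6 samples were most like the mean of the members' standardised log2 values were SAT1, NUP188 and ILKAP (Pearson r 0.998, 0.995 and 0.99, n = 6, a description over samples that share libraries). SAT1, an enzyme of polyamine catabolism, was 30.43, 27.98 and 27.77 FPKM in shNC and 28.34, 30.39 and 30.1 FPKM in shPQBP1. As these values show, the mean pattern of the members was high in shNC sample 1 and shPQBP1 samples 2 and 3, and did not separate the groups. That mean joins members with unlike patterns, so it need not resemble any single member. Over the 6 samples Pearson r was 0.96 for HLA-B with B2M and 0.94 for TAP1 with TAPBP. It was -0.75 for HLA-B with TAP1 and -0.68 for B2M with TAP1.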

How the data were processed

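RNA-seq of 6 HEY samples (3 shNC, 3 shPQBP1, called biological triplicates in the design text) was used. Per the labels and the study's methods, poly(A) RNA was sequenced in pairs, mapped to hg38 with HISAT2 (version 2.2.0), sorted with SAMtools (version 1.9), assembled with StringTie (version 1.3.0) and compared by the authors with edgeR. The annotation, strand and multi-mapping settings are not given in the sources used here. The authors deposited FPKM per gene and sample, in rounded form. The authors' own fold change, log2 fold change, p-value and q-value columns were not used. Depth is unknown, because low values showed no whole-read steps, and counting intervals are left out.

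Genes with a mean of at least 1 FPKM were compared on log2(FPKM + 0.1), which understates changes of low genes, using lmFit and eBayes (trend on) of limma, version 3.58.1, under R version 4.3.3. P-values were two-sided and adjusted by Benjamini-Hochberg across every gene tested. A count model was not used because the table holds no counts. Exact permutation tests were two-sided. Ratios, sums and figures were made with Python (version 3.11.15). The GC and length correction subtracted, sample by sample, a natural spline fit (5 degrees of freedom) of log2 level on GC content and log length of GENCODE release 44 canonical transcripts. The steps were tested on simulated data.

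Replicate numbers were not taken as pairs in the main fit. Same-numbered samples had correlations of -0.186, -0.138 and -0.011 between their deviations from the group means. These cannot decide whether the samples are paired, because the deviations of the 3 samples in a group sum to 0. With the replicate number as a block 0 genes were called, as given in the closing section. Members and gene lists were chosen with earlier results of these data known. Genes named by a rule are PQBP1, the members, PSMB8, PSMB9, the called genes of each list (or the 2 with the smallest p), and the 3 most like the members. Cell type markers, class II genes and the genes that the text says were picked out or named after their values were seen fall outside that rule. Promoters came from RefSeq tables. Alternatives are listed in the closing section.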

Additional observations from a re-analysis of the deposited data

How the results depend on the processing

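Alternatives were other scalings, low-value minimums and pseudocounts, no variance trend, a GC and length correction, each sample left out in turn, and the replicate number as a block. The lists for peptide loading, transcription and interferon signalling had 0 called throughout. Class II also had 0, but 0 of its genes reached the minimum of the main fit. Only the fit of genes above 0 in any sample could have called them. HLA-B, HLA-C, B2M, TAP1, TAPBP, PSMB8, MX1 and IFIT2 kept their direction wherever they were tested. A minimum of 10 FPKM left out TAP1, PSMB8, MX1 and IFIT2, which average less. The causes of the shifts below were not tested.

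Against 332 genes called, the counts were 938 with the GC and length correction, 586 with equal sums (448 higher and 138 lower, against 197 and 135), 190 with all genes above 0 in any sample, 211 with a minimum of 10 FPKM, and 30 to 466 with a sample left out (466 without shNC 1, 93 without shNC 2, 66 without shNC 3, and 46, 36 and 30 without shPQBP1 1, 2 and 3). Against 1 member called, there were 2 with the GC correction (HLA-B and HLA-C), 2 with equal sums (HLA-B and B2M), 0 with genes above 0 (B2M adjusted p = 0.0927), 0 with no trend (0.0574), and 0 to 1 with a sample left out. The 4 members at an unadjusted p under 0.05 were 2 to 3 with a sample left out. Peptide supply had 2 called with the GC correction and 0 to 1 with a sample left out. Other class I genes had 2 with the GC correction, 1 with a minimum of 10 FPKM and 1 with quantile normalization. Interferon-induced genes had 7, 0 with a minimum of 10 FPKM, and 1 to 3 with a sample left out. HLA-E, at -0.03, was 0.10 with the GC correction, 0.08 with equal sums and -0.08 to 0.04 with a sample left out. TAP2, at 0.02, was -0.01 with quantile normalization and -0.02 to 0.04 with a sample left out.

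With the replicate block, 0 genes were called in all (1840 at an unadjusted p under 0.05), with 0 members (2 unadjusted) and 0 interferon-induced genes. B2M then had an adjusted p of 0.228, MX1 of 0.0889 and IFIT2 of 0.148. With block and GC correction together, 21 genes, 0 members (2 unadjusted) and 0 interferon-induced genes were called, HLA-E was 0.10, and B2M, MX1 and IFIT2 had adjusted p of 0.367, 0.0543 and 0.0749. The block alone left the log2 fold changes of B2M (0.47), MX1 (-1.75) and IFIT2 (1.14) as in the main fit, while their adjusted p rose. With 3 samples per group, the correlations between same-numbered samples cannot show whether those samples belong together. Why the calls were lost under the block was not tested. The 3 samples per group limit the exact test to p = 0.1, and the unknown depth leaves HLA-F and NLRC5 without a counting error.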
